A study of Mus musculus with 19 samples.

Results

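Transforming growth factor beta (TGF-beta) signaling was followed through 10 of its core genes in organoid lines of mouse pancreatic duct. The genes were chosen by name: the ligands Tgfb1, Tgfb2 and Tgfb3, the receptors Tgfbr1, Tgfbr2 and Tgfbr3, and the intracellular mediators Smad2, Smad3, Smad4 and Smad7. They are 10 of the 29861 rows of the table, and 9 of them reached the level at which a gene was tested. The rule that picks them uses names and no expression value, but the set was proposed with earlier results of these data known. RNA was measured in 6 tumor lines, 6 PanIN lines and 7 normal lines. The tumor lines came from pancreatic adenocarcinomas of mice that carried Pdx1-Cre and a Cre-activated Trp53 R172H allele. The PanIN lines came from ducts of Pdx1-Cre pancreas that held pancreatic intraepithelial neoplasia, a precursor lesion of ductal adenocarcinoma. Mice of both of these groups carried a further Cre-activated allele. The normal lines came from ducts of histologically normal pancreas of wild-type mice. The Pdx1 promoter drives Cre in the epithelium of the developing pancreas, so recombination is not limited to duct cells. All mice were C57B6/J, 11 lines were female and 8 were male, and the ages are not given in the sources used here.

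Organoids are epithelial cells that grow as hollow spheres in a basement membrane gel, here Matrigel. Every line grew in 1 medium, so the agents in it were shared by tumor, PanIN and normal lines. It held 0.5 µM A83-01, an inhibitor of the type I receptors for TGF-beta, activin and nodal, and 0.1 µg/mL noggin, an inhibitor of bone morphogenetic proteins. It also held EGF at 0.05 µg/mL, FGF-10 at 0.1 µg/mL, gastrin and 10% R-spondin-conditioned medium. All values were therefore measured with this inhibitor present, and lines without it were not analysed here.

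TGF-beta ligands are secreted in a latent form and, once released, bring together a type II and a type I receptor kinase. The type I receptor phosphorylates SMAD2 and SMAD3, which bind SMAD4, enter the nucleus and regulate transcription, while SMAD7 blocks the type I receptor and is itself induced by the pathway. In pancreatic epithelium the pathway is known as a brake on growth, and SMAD4 and TGFBR2 are among the genes lost in human pancreatic cancer.

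Values are TPM, transcript abundance per length scaled to a total of 1e+06 in every library. Because all tests ran on bulk RNA, fewer cells of a type and less RNA per cell cannot be told apart. TPM keeps no depth, and the number of genes that reached 1 TPM ran from 11938 to 12437 per line. All 9 duct markers were detected at 1 TPM or more in at least 1 line, with summed levels of 6022 to 7752 TPM in tumor lines, 6589 to 9304 TPM in PanIN lines and 7525 to 12351 TPM in normal lines. Of 9 fibroblast markers 0 reached 1 TPM in any line, and their summed level was at most 0.23 TPM. The summed level of 5 leukocyte markers was 1.49 to 3.94 TPM in tumor lines, 2.75 to 3.65 TPM in PanIN lines and 4.41 to 8.24 TPM in normal lines. That sum came from Cd68 and Csf1r, while the pan-leukocyte gene Ptprc stayed at or below 0.09 TPM and the T cell gene Cd3e was listed at 0. This sum moved with the groups as several members did, and its part in their differences was not tested.

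The type II receptor Tgfbr2 and the ligand Tgfb3 stood highest among the members. Over the 19 lines, their mean levels lay at percentiles 90.7 and 89.6 of the 12500 tested genes. Smad4, Smad2, Smad3 and the type I receptor Tgfbr1 followed, at percentiles 80.0, 76.9, 75.6 and 70.1. Smad7 lay at percentile 20.1, Tgfb2 at 7.49 and Tgfb1 at 5.40. Tgfbr3, which encodes the co-receptor betaglycan, ranged from 0.04 to 0.24 TPM and was not tested because 0 lines reached 1 TPM. Among the tested members, neighbors in this order overlapped in their ranges over lines, apart from Tgfbr1 and Smad7. Tgfb3 thus overlapped Smad4, and Smad4 also overlapped Smad3.

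**Figure D1:**
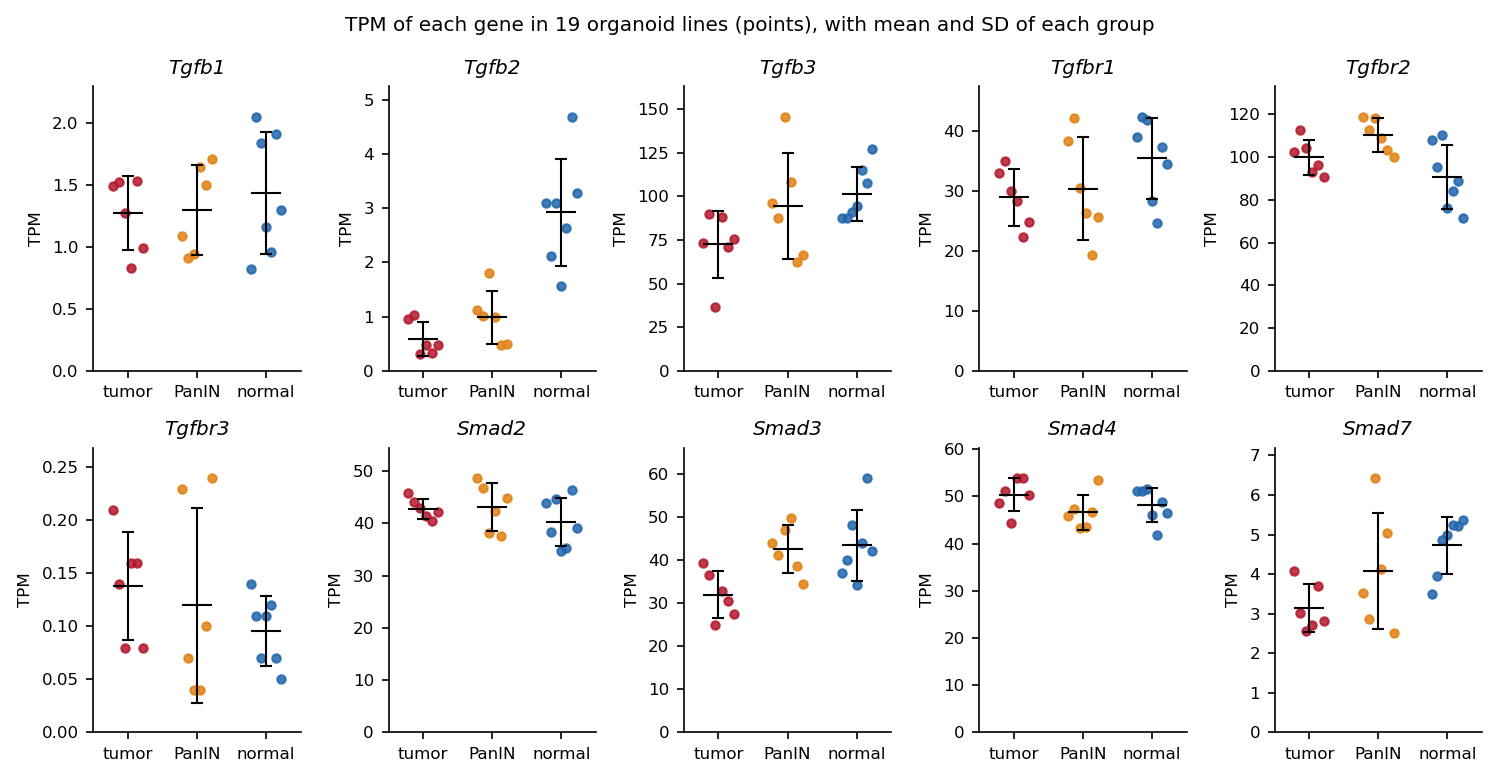
TPM of each of the 10 genes in every line, with tumor lines to the left, PanIN lines in the middle and normal lines to the right; each point is 1 line. Tgfb2 is the gene in which all 6 tumor lines, at 0.32 to 1.03 TPM, lie below all 7 normal lines, at 1.56 to 4.69 TPM.

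Between tumor and normal lines, 4 of the 9 tested members were lower and 0 were higher. Those that fell were the ligands Tgfb2 and Tgfb3, the receptor-regulated mediator Smad3 and the inhibitory Smad7. Over all genes, 32.2% were called in this comparison, with 14.4% lower and 17.8% higher. Between PanIN and normal lines, Tgfb2 alone was called, 1 of 9 members, where 6.78% of all genes were called and 3.68% were lower. Between tumor and PanIN lines 0 of 9 members were called by limma with Benjamini-Hochberg adjustment, where 1.6% of all genes were and 1.21% were lower. At an unadjusted p under 0.05 that last count was 1, Smad3. The authors' deposited table called 4 of 10 members between tumor and normal lines, where it called 32.5% of its genes, 2 of 10 between PanIN and normal lines, where it called 10.5%, and 1 of 9, Smad3, between tumor and PanIN lines, where it called 11.7%. The median log2 change of the tested members was -0.28 between tumor and normal lines, against 0.04 over all tested genes, and -0.07 between PanIN and normal lines, against -0.03. The tumor and PanIN comparisons share the same 7 normal lines, so their values are given side by side and are not 2 independent results.

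**Figure D2:**
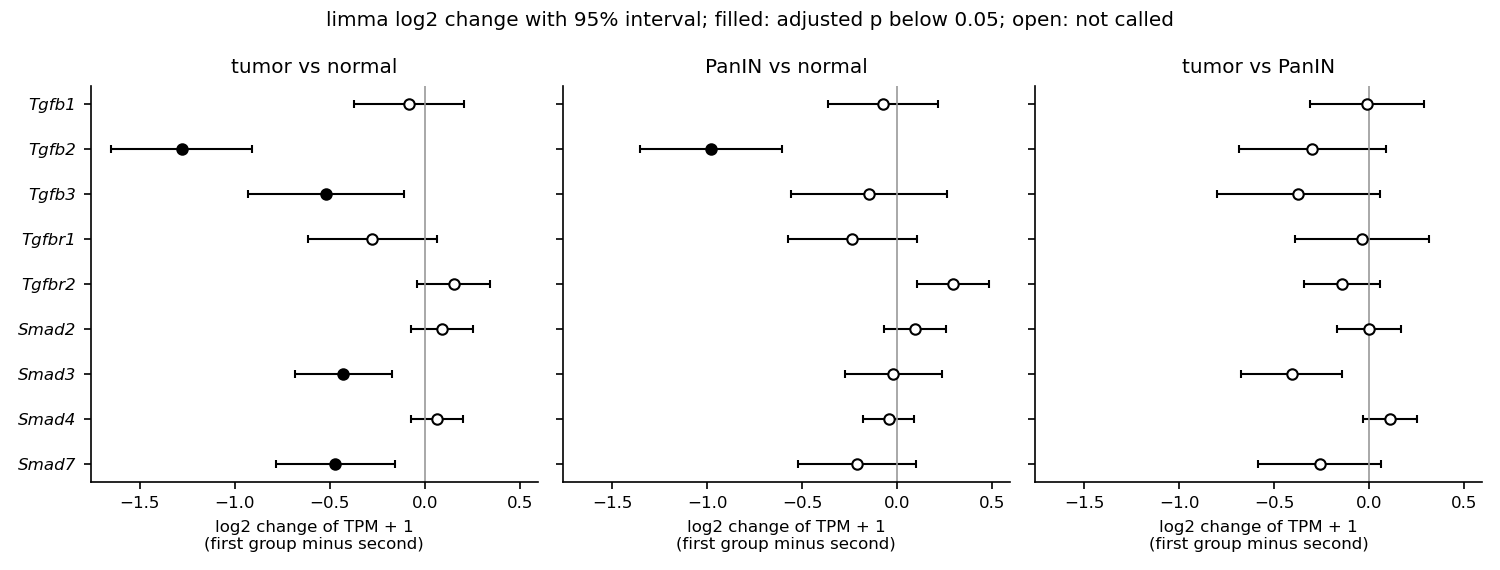
Change of the 9 tested genes on the log2(TPM + 1) scale in the 3 comparisons, with tumor against normal first; points are limma estimates and bars their 95% intervals. Tgfb2 lies at -1.28 for tumor against normal and at -0.98 for PanIN against normal, and Smad2, Smad4 and Tgfb1 have intervals that include 0 in each comparison.

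Tgfb2, a ligand that needs betaglycan for high-affinity receptor binding, was the member with the largest change. Its lowest, median and highest levels were 0.32, 0.475 and 1.03 TPM in tumor lines, 0.47, 1.005 and 1.81 TPM in PanIN lines, and 1.56, 3.09 and 4.69 TPM in normal lines. All tumor lines lay below all normal lines, which 7.26% of the tested genes did in either direction. PanIN 3, at 1.81 TPM, was the 1 PanIN line above the lowest normal line, normal 10 at 1.56 TPM. Tgfb2 averaged 0.597 ± 0.313 TPM in tumor lines (SD, n = 6), 0.985 ± 0.490 TPM in PanIN lines (n = 6) and 2.92 ± 0.991 TPM in normal lines (n = 7).

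On the log2(TPM + 1) scale Tgfb2 fell by 1.28 in tumor lines against normal lines (SE 0.18, limma, adjusted p = 0.000154). In PanIN lines it fell by 0.98 against normal lines (SE 0.18, adjusted p = 0.00223). Tumor and PanIN lines differed by -0.30 (SE 0.18, adjusted p = 0.282), with an interval from -0.69 to 0.09. This scale understates the change of so low a gene: the ratio of mean TPM was 4.90-fold lower in tumor lines and 2.97-fold lower in PanIN lines, each against normal lines. With a pseudocount of 0.1 the tumor value was -2.16, and the authors' deposited table gave -2.19 for tumor against normal and -1.46 for PanIN against normal. Tgfb2 passed the filter on low values mainly through its normal lines, since 1 tumor line, 3 PanIN lines and 7 normal lines reached 1 TPM. Within the 3 series of library identifiers that the column names carry, the tumor change was -0.88, -1.15 and -1.54 and the PanIN change was -0.71, -0.62 and -1.73. The first series holds 1 tumor line and the second holds 1 PanIN line, so each per-series value of these groups rests on that 1 line there, for every member.

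The proximal promoters of Tgfb2 and Smad3, a pair of members that fell in tumor lines, are shown for their match to the core SMAD-binding letters CAGAC. Both are RefSeq sequence of the mouse build GRCm38.p6, which is not the build of the expression table, and run 5′ to 3′ on the gene's strand from 250 bases before to 50 bases after the start site. The Tgfb2 window is chr1:186705940-186706239 on the minus strand and the Smad3 window is chr9:63757945-63758244 on the minus strand. Capitals mark CAGAC on either strand.
Tgfb2: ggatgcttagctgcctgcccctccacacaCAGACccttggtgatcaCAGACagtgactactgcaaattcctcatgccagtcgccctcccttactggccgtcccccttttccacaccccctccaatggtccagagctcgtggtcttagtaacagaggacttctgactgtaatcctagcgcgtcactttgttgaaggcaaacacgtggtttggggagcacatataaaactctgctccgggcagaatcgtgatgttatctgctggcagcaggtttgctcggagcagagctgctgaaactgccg
Smad3: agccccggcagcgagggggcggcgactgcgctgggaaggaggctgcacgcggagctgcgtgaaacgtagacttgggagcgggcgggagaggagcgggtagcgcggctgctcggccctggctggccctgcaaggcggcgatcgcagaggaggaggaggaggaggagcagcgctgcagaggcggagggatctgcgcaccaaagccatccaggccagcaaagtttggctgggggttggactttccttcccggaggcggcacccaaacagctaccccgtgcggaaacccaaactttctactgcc
The Tgfb2 window held 2 matches to CAGAC, at positions -221 and -204 from the start site, a TATA box (TATAAA) at -31 and an E-box (CACGTG) at -51. The Smad3 window held 0 matches to CAGAC and 2 to the GC box CCGCCC, and its GC content was 67.7%, against 54.3% for Tgfb2. CAGAC occurred on either strand in 49.6% of the 32851 mouse promoter windows of this length, TATAAA in 13.6%, CACGTG in 7.15% and CCGCCC in 35.7%. The AP-1 letters TGANTCA, found in 7.81% of windows, and the CRE letters TGACGTCA, found in 1.79%, were in neither window; none of the matches found overlap each other. Of the other members with a window, Tgfbr2 held CAGAC at -160 and Tgfbr1 at -203 from 1 of its start sites. Neither of these receptors was called in tumor lines, and the Tgfb1 window held 0 matches to CAGAC. These matches describe letters and not bound sites.

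Tgfb3 carried most of the ligand transcript in every line, at 94.2% to 98.5% of the summed TPM of Tgfb1, Tgfb2 and Tgfb3. Its lowest, median and highest levels were 36.7, 74.4 and 89.7 TPM in tumor lines, 62.6, 91.9 and 145.7 TPM in PanIN lines, and 87.5, 94.4 and 126.9 TPM in normal lines. The tumor and normal ranges touched only at their edges, and the lowest tumor line, tumor 5 at 36.7 TPM, stood well below the next at 71.3 TPM. Tgfb3 averaged 72.5 ± 19.2 TPM in tumor lines (SD, n = 6), 94.4 ± 30.6 TPM in PanIN lines (n = 6) and 101 ± 15.4 TPM in normal lines (n = 7).

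Tgfb3 fell by 0.52 on the log2(TPM + 1) scale in tumor lines against normal lines (SE 0.20, limma, adjusted p = 0.0490). That adjusted p lay just under the threshold. In PanIN lines Tgfb3 differed from normal lines by -0.15 (adjusted p = 0.766), and tumor lines differed from PanIN lines by -0.37 (adjusted p = 0.226). The tumor call was lost in 18 of 30 alternatives, among them those without tumor 3, 5, 8 or 9, without PanIN 1, 2 or 4 and without normal 6, 7, 10, 11, 12 or 13. It was also lost with sex of the line as a term (adjusted p = 0.0742), with the identifier series as a term (adjusted p = 0.0883), with no filter on low values (adjusted p = 0.0777) and with a limma prior that has no trend (adjusted p = 0.0529). Without tumor 5 the change was -0.34 (adjusted p = 0.134). Within the 3 identifier series it was 0.02, from 1 tumor line, -0.75 and -0.65. The change in PanIN against normal lines differed in sign by series: 0.27, 0.05, from 1 PanIN line, and -0.85.

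Tgfb1, the ligand most studied in inflammation and fibrosis, was low in all lines. It ran from 0.83 to 1.53 TPM in tumor lines with a median of 1.38, from 0.91 to 1.71 TPM in PanIN lines with a median of 1.30, and from 0.82 to 2.05 TPM in normal lines with a median of 1.30. The 3 groups overlapped, and the log2(TPM + 1) change was -0.08 in tumor lines (interval -0.37 to 0.20, adjusted p = 0.666) and -0.07 in PanIN lines (interval -0.36 to 0.22, adjusted p = 0.846), each against normal lines. The ratio of Tgfb2 to Tgfb1 thus ran from 0.216 to 0.678 in tumor lines, from 0.292 to 1.93 in PanIN lines and from 1.03 to 3.77 in normal lines. All 6 tumor lines held more Tgfb1 than Tgfb2 transcript per length, and all 7 normal lines held more Tgfb2. The summed ligand level was 38.3 to 92.3 TPM in tumor lines, 64.5 to 148.5 TPM in PanIN lines and 91.4 to 131.5 TPM in normal lines, and followed Tgfb3.

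Of the receptors, Tgfbr2 and Tgfbr1 were both expressed in every line and neither was called in any of the 3 comparisons. Tgfbr2, the type II receptor that binds ligand first, had lowest, median and highest levels of 90.9, 99.4 and 112.5 TPM in tumor lines, 100.2, 110.8 and 119.0 TPM in PanIN lines, and 71.6, 88.8 and 110.5 TPM in normal lines. PanIN lines were above all normal lines but normal 5 and normal 7. The log2(TPM + 1) change was 0.30 in PanIN lines against normal lines (SE 0.09, limma, adjusted p = 0.0583), 0.15 in tumor lines against normal lines (SE 0.09, adjusted p = 0.209) and -0.14 in tumor lines against PanIN lines (adjusted p = 0.318).

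The PanIN difference of Tgfbr2 crossed the threshold under some settings. It was called with the identifier series as a term (0.28, adjusted p = 0.0125), with median-of-ratios scaling (0.33, adjusted p = 0.0263), without normal 5 (adjusted p = 0.0300) and without normal 7 (adjusted p = 0.0226), and it was called in the authors' deposited table (0.32, adjusted p = 0.0113). With the series as a term the tumor difference was also called (0.22, adjusted p = 0.0218). Levels moved with the series inside a group: normal lines of the first series held 95.5 to 110.5 TPM, and those of the later series held 71.6 to 88.8 TPM.

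Tgfbr1, the type I receptor kinase that A83-01 inhibits, ran from 22.4 to 35.0 TPM in tumor lines with a median of 29.2, from 19.4 to 42.2 TPM in PanIN lines with a median of 28.5, and from 24.6 to 42.5 TPM in normal lines with a median of 37.3. The ranges overlapped broadly. The log2(TPM + 1) change was -0.28 in tumor lines (interval -0.62 to 0.06, adjusted p = 0.197) and -0.24 in PanIN lines (interval -0.58 to 0.10, adjusted p = 0.480), each against normal lines. The ratio of Tgfbr2 to Tgfbr1 averaged 3.50 ± 0.432 in tumor lines (SD, n = 6), 3.84 ± 0.919 in PanIN lines (n = 6) and 2.60 ± 0.439 in normal lines (n = 7). It ran from 3.11 to 4.29 in tumor lines and from 2.08 to 3.42 in normal lines, so the ranges overlapped, and it was not tested. Tgfbr3 ran from 0.08 to 0.21 TPM in tumor lines, from 0.04 to 0.24 TPM in PanIN lines and from 0.05 to 0.14 TPM in normal lines.

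**Figure D3:**
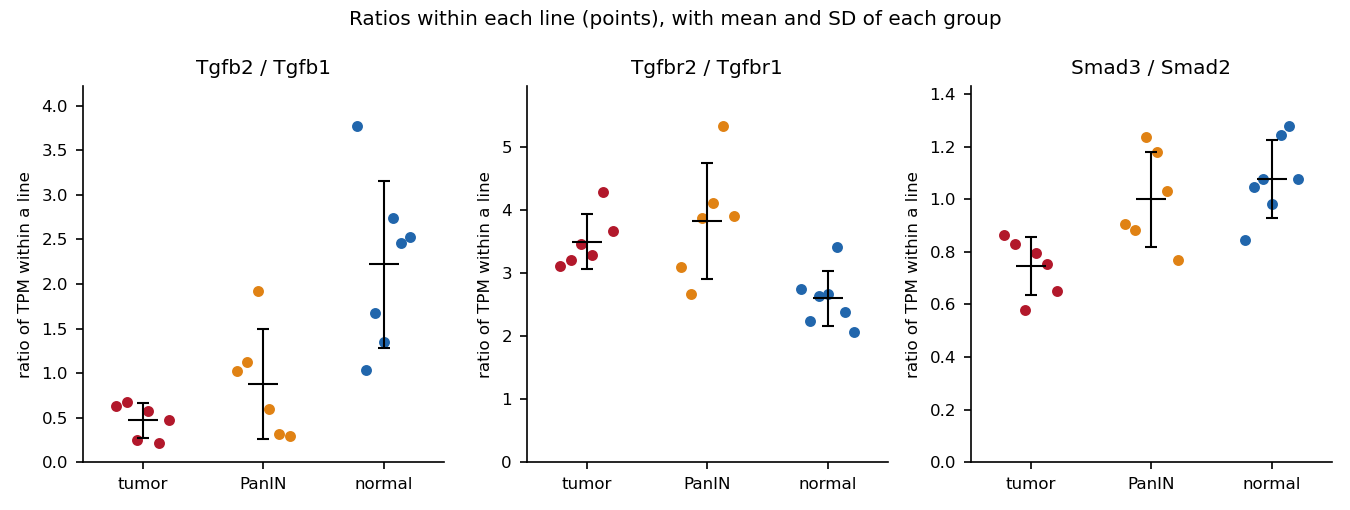
Ratios of TPM within each line for Tgfb2 over Tgfb1, Tgfbr2 over Tgfbr1 and Smad3 over Smad2, with tumor, PanIN and normal lines from left to right; each point is 1 line and bars show the mean and SD. Tgfb2 over Tgfb1 lies at or below 0.678 in all tumor lines and at or above 1.03 in all normal lines.

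Of the receptor-regulated members, Smad3 was called between tumor and normal lines and Smad2 was not; the difference between their changes was not tested. Smad3 had lowest, median and highest levels of 24.9, 31.8 and 39.5 TPM in tumor lines, 34.6, 42.7 and 49.8 TPM in PanIN lines, and 34.2, 42.2 and 59.2 TPM in normal lines. Tumor 3 and tumor 4 reached into the range of both other groups and the other 4 tumor lines lay below every PanIN and normal line. Smad3 averaged 32.0 ± 5.47 TPM in tumor lines (SD, n = 6), 42.6 ± 5.56 TPM in PanIN lines (n = 6) and 43.5 ± 8.25 TPM in normal lines (n = 7).

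Smad3 fell by 0.43 on the log2(TPM + 1) scale in tumor lines against normal lines, a 1.35-fold decrease (SE 0.12, limma, adjusted p = 0.0134). PanIN lines differed from normal lines by -0.02 (interval -0.28 to 0.24). This value averages over series that differed in sign: 0.08 in the first, 0.35 in the second, from 1 PanIN line, and -0.44 in the third. Between tumor and PanIN lines the difference was -0.41 (SE 0.13, adjusted p = 0.0681). That difference was called without PanIN 6 (adjusted p = 0.0198), without tumor 4 (adjusted p = 0.0286) and in the authors' deposited table (-0.47, adjusted p = 0.0173). Within the 3 identifier series the change between tumor and normal lines was -0.18, from 1 tumor line, -0.39 and -0.58.

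Smad2, the other receptor-regulated member, ran from 40.5 to 45.8 TPM in tumor lines with a median of 42.6, from 37.6 to 48.7 TPM in PanIN lines with a median of 43.6, and from 34.8 to 46.3 TPM in normal lines with a median of 39.2. It differed from normal lines by 0.09 on the log2(TPM + 1) scale both in tumor lines (interval -0.07 to 0.25, adjusted p = 0.385) and in PanIN lines (interval -0.07 to 0.26). The ratio of Smad3 to Smad2 ran from 0.580 to 0.862 in tumor lines, from 0.770 to 1.23 in PanIN lines and from 0.846 to 1.28 in normal lines. In all 6 tumor lines Smad2 was therefore the more abundant of the pair per length.

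**Figure D4:**
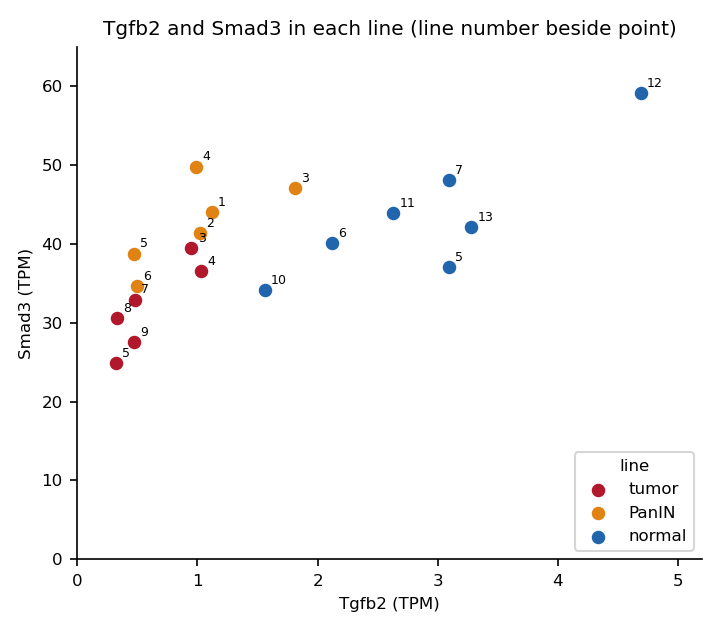
Tgfb2 against Smad3 in each of the 19 lines, both as TPM, with tumor, PanIN and normal lines marked by color. Each point is 1 line. Pearson's r in log2(TPM + 1) was 0.71 over the lines and 0.80 after the mean of each group was subtracted. The latter was the highest of all pairs of tested members, and differences between identifier series were not removed.

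Smad4, the common partner of SMAD2 and SMAD3, was present at similar levels in all lines. It ran from 44.5 to 53.9 TPM in tumor lines with a median of 50.8, from 43.3 to 53.4 TPM in PanIN lines with a median of 46.2, and from 41.9 to 51.7 TPM in normal lines with a median of 48.8. No line lacked Smad4 transcript, which does not exclude a change of its coding sequence. The log2(TPM + 1) change was 0.06 in tumor lines (interval -0.07 to 0.20, adjusted p = 0.468), against normal lines, and its spread within groups, an SD of 0.11, was at percentile 6.93 of the tested genes.

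Smad7, the inhibitory member that the pathway itself induces, had lowest, median and highest levels of 2.56, 2.91 and 4.07 TPM in tumor lines, 2.52, 3.83 and 6.43 TPM in PanIN lines, and 3.51, 4.98 and 5.37 TPM in normal lines. The upper tumor lines overlapped the lower normal lines, and PanIN lines spanned both. Smad7 fell by 0.47 on the log2(TPM + 1) scale in tumor lines against normal lines, a 1.39-fold decrease (SE 0.15, limma, adjusted p = 0.0227). PanIN lines differed from normal lines by -0.21 and tumor lines from PanIN lines by -0.26, and neither was called. The tumor call was lost without tumor 5 (adjusted p = 0.0560) and without tumor 9 (adjusted p = 0.0505), and within the identifier series the change was -0.34, from 1 tumor line, -0.63 and -0.52.

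Across the 19 lines, which share group and identifier series, some members varied together in log2(TPM + 1). Tgfb2 followed Smad3 with a Pearson r of 0.71, and of 0.80 after the group means were subtracted. Tgfb3 followed Smad3 with an r of 0.73, and of 0.61 after subtraction, and Tgfb2 followed Tgfb3 with 0.65 and 0.62. Tgfbr1 followed Smad2 with 0.49 and 0.72, and Tgfbr2 with 0.24 and 0.61. The inhibitory Smad7 ran against Smad4, with an r of -0.49 and of -0.46 after subtraction, and against Smad2, with -0.51 and -0.45. The pairs named here are those with the highest and lowest r after subtraction among all pairs of tested members. Subtraction of group means leaves differences between identifier series in place. These values describe the lines and carry no test.

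The genes whose pattern over the 19 lines was most like that of a called member were taken as the 3 with the highest Pearson r. For Tgfb2 they were Tmem108, Abtb2 and Brsk1, each with an r of 0.95, and after the group means were subtracted Sdcbp (0.89), Rapgef2 (0.88) and Apoe (0.86). For Tgfb3 they were Atp13a2 (0.91), Txndc15 (0.90) and Tmem195 (0.89), and these 3 also led after subtraction. For Smad3 they were Zswim6 (0.93), Arl8a (0.91) and Zfand3 (0.91), and after subtraction Trp53inp2 (0.89), Fblim1 (0.88) and Relb (0.88). For Smad7 they were Armcx1 (0.82), Serinc2 (0.81) and Cdc14b (0.80), and after subtraction Zfp286 (0.77), Cdkn2b (0.74) and Frs3 (0.74).

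Genes of TGF-beta latency and activation fell in part in tumor lines. Of 15 listed genes 8 were tested, of which 5 fell and 0 rose in tumor lines against normal lines, where 14.4% of all genes were lower and 17.8% higher. The count of 5 was 3 without normal 6, without tumor 8, without tumor 9 and with the identifier series as a term. Their median log2 change was -0.52, against 0.04 over all tested genes. Itgb6 and Itgav, the subunits of an integrin that activates latent TGF-beta, averaged 14.2 and 26.5 TPM in tumor lines and 29.4 and 44.1 TPM in normal lines (adjusted p = 0.000856 and 0.00632, limma). The protease Bmp1 averaged 2.07 TPM in tumor lines and 6.13 TPM in normal lines, and the membrane protease Mmp14 averaged 13.3 TPM in tumor lines and 21.2 TPM in normal lines. Between PanIN and normal lines Itgb6 was the 1 gene of this list called, at 18.9 TPM in PanIN lines and 29.4 TPM in normal lines (adjusted p = 0.0368), where 3.68% of all genes were lower. That count of 1 was 0 in 15 of 30 alternatives: without normal 6, 10, 11, 12 or 13, without PanIN 1, 2, 4, 5 or 6, with no filter on low values, with median-of-ratios or quantile scaling, with sex as a term and with only those groups fitted. It was 3 without normal 5, and 2 without PanIN 3 and with the series as a term. Plau, the urokinase plasminogen activator, was called between tumor and PanIN lines, at 25.8 TPM in tumor lines and 48.1 TPM in PanIN lines (adjusted p = 0.0419).

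Of 17 listed receptor partners and receptor-level inhibitors 10 were tested, and 4 fell and 2 rose in tumor lines against normal lines, where 14.4% of all genes were lower and 17.8% higher. The 2 of 10 that rose are near that background, and the list had a median change of -0.03 (log2), against 0.04 over all tested genes. Pmepa1, which sequesters receptor-regulated SMADs and is a pathway target, averaged 1.03 TPM in tumor lines, 2.13 TPM in PanIN lines and 7.26 TPM in normal lines and fell in both comparisons with normal lines (adjusted p = 0.000680 for tumor and 0.00787 for PanIN). The ligand-binding proteoglycan Bgn averaged 2.14 TPM in tumor lines, 3.53 TPM in PanIN lines and 16.7 TPM in normal lines and also fell in both. Vasn, a ligand trap, averaged 13.8 TPM in tumor lines and 23.6 TPM in normal lines, and Strap, a partner of SMAD7, rose to 124.4 TPM in tumor lines, against 98.1 TPM in normal lines.

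Of 19 listed SMAD regulators and cofactors 18 were tested, with 3 lower and 2 higher in tumor lines and 1 lower in PanIN lines, each against normal lines. These counts are near the background of 14.4% lower and 17.8% higher for tumor lines and 3.68% lower for PanIN lines. The 1 gene of this list called in both comparisons was Skil, a SMAD corepressor induced by the pathway, which averaged 10.4 TPM in tumor lines, 12.2 TPM in PanIN lines and 18.2 TPM in normal lines (adjusted p = 0.00141 for tumor and 0.0228 for PanIN). Its PanIN call was lost without normal 12, without PanIN 4 and without PanIN 5. The corepressor Tgif1 averaged 48.2 TPM in tumor lines and 70.1 TPM in normal lines. The phosphatase Ctdsp1 rose to 24.6 TPM in tumor lines, against 18.8 TPM in normal lines.

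Targets of TGF-beta and SMAD2/3 were lower in tumor and PanIN lines where they were called. Of 33 listed symbols 20 were tested, and 10 fell and 0 rose in tumor lines, while 6 fell and 0 rose in PanIN lines, each against normal lines. Over all genes 14.4% were lower in tumor lines and 3.68% in PanIN lines. The PanIN count of 6 was 3 without normal 12 and without PanIN 4, and 4 to 6 without any other line. Log2 changes of the list had a median of -0.41 in tumor lines, against 0.04 over all tested genes. In PanIN lines the median was -0.16, against -0.03. Of the listed genes, 5 also stand in another of these lists. Among them are Itgb6, Pmepa1 and Skil, which were called lower in both comparisons and are counted again in that other list. The counts of the lists are thus not independent. Junb, an AP-1 subunit, averaged 72.8 TPM in tumor lines and 129.1 TPM in normal lines (adjusted p = 0.000143). The matrix gene Fn1 averaged 7.95 TPM in tumor lines, 9.31 TPM in PanIN lines and 23.9 TPM in normal lines, and Col4a1 averaged 24.2 TPM in PanIN lines and 54.6 TPM in normal lines. Cdkn1a, a cell cycle inhibitor that is also a p53 target, was the 1 target called between tumor and PanIN lines (limma, adjusted p = 0.00289). It averaged 34.4 TPM in tumor lines, 80.4 TPM in PanIN lines and 53.6 TPM in normal lines. Its change in PanIN against normal lines was 0.61 and was not called (limma, adjusted p = 0.0549). Of the 20 tested targets, 15 had a change below 0 in PanIN against normal lines.

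The matricellular target Ctgf was not called, and averaged 70.8 ± 20.3 TPM in tumor lines (SD, n = 6), 67.4 ± 17.2 TPM in PanIN lines (n = 6) and 77.7 ± 29.8 TPM in normal lines (n = 7), a spread wider than the differences. The transcription factors of epithelial-mesenchymal transition Snai1, Snai2, Zeb1, Zeb2 and Twist1 averaged under 1 TPM in each group and were not tested.

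The activin and nodal branch, which signals through the same SMAD2 and SMAD3, had 9 tested genes of 15. In tumor lines 2 fell and 2 rose against normal lines, which is near the background of 14.4% lower and 17.8% higher, with a median log2 change of -0.09. The lower count was 1 without tumor 8 and when the filter was set to 5 TPM, and 3 without normal 6 or 12, PanIN 6 or tumor 4 or 5. Inhba, which encodes the subunit of activin A, averaged 0.723 TPM in tumor lines, 1.47 TPM in PanIN lines and 6.07 TPM in normal lines and fell in both comparisons with normal lines (adjusted p = 0.000153 for tumor and 0.00282 for PanIN). Inhbb averaged 1.94 TPM in tumor lines and 5.42 TPM in normal lines. The activin receptors Acvr1b and Acvr2a rose to 23.4 and 21.2 TPM in tumor lines, against 18.4 and 17.5 TPM in normal lines.

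**Figure D5:**
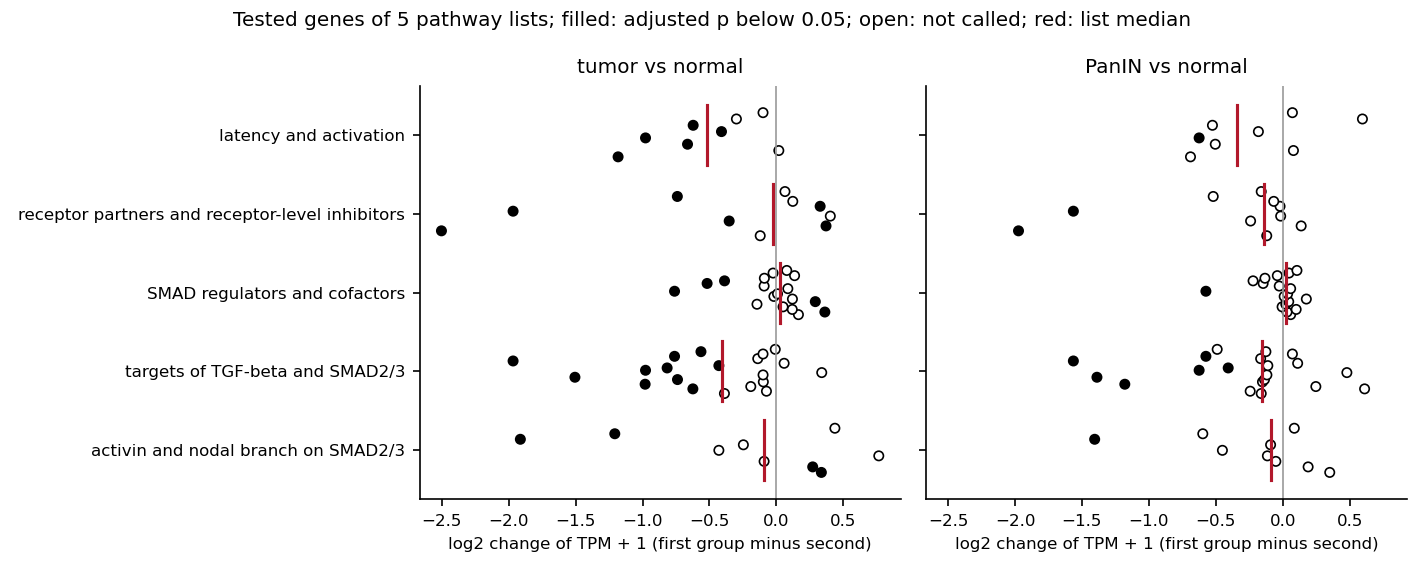
Change of every tested gene of the 5 pathway lists on the log2(TPM + 1) scale, for tumor against normal and for PanIN against normal; each point is 1 gene, filled where it was called, and the red line is the median of the list. The targets of TGF-beta and SMAD2/3 hold 10 called genes below 0 for tumor against normal and 6 for PanIN against normal. Itgb6, Pmepa1 and Skil are each drawn in more than 1 list.

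Sex of the line was compared with group as a term, over 11 female and 8 male lines. By limma 0 of the 9 tested members were called, where 0.072% of all genes were, and 1 had an unadjusted p under 0.05. That member was Tgfb1, which averaged 1.21 ± 0.435 TPM in female lines and 1.52 ± 0.222 TPM in male lines (SD), a log2(TPM + 1) difference of -0.23 (limma, unadjusted p = 0.0481, adjusted p = 0.999). The member with the largest difference was Tgfb3, which averaged 99.1 ± 22.6 TPM in female lines and 77.8 ± 22.6 TPM in male lines, a log2(TPM + 1) difference of 0.32 (limma, unadjusted p = 0.0521, adjusted p = 0.999). The sexes were 3 female and 3 male among tumor lines and among PanIN lines, and 5 female and 2 male among normal lines. All female PanIN lines were of the first identifier series and all male PanIN lines of the later ones. Sex and series cannot be told apart within that group.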

How the data were processed

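The authors deposited a single table with TPM per gene and line. FastQC, Bowtie 1.1.0, RSEM 1.2.11 and the mm9 build are named per the submitters' processing notes, and the sources used here do not state the gene annotation. Per the labels' protocols, libraries were made from total RNA after removal of ribosomal RNA and mark strand. The deposited table also holds the authors' own comparisons: a mean signal over all lines (base mean), a log2 fold change, its standard error and test statistic (scores), and a p-value with its adjusted p-value; DESeq2 1.4.1 and DESeq are named in the submitters' processing notes. The number of columns of other samples is 0. One allele of the PanIN and tumor mice and some genes of the lists are not reported here.

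TPM keeps no depth, so no counting interval is given; the authors' base means of the members ran from 14.7 (Tgfbr3) to 10774 (Tgfbr2). Rows with at least 1 TPM in at least 6 lines (12500) were tested with limma 3.58.1 (R 4.3.3) on log2(TPM + 1), 1 mean per group over all 19 lines, eBayes with trend, two-sided, and Benjamini-Hochberg adjustment per comparison over all tested genes; a gene was called at an adjusted p below 0.05. Folds are on this scale unless a ratio of means is named. The script was tested on simulated data. Whether any lines came from 1 mouse or litter is not stated in the labels, and p-values thus reflect only how far lines differ. The column names carry library identifiers of 3 series, which were treated as a possible batch.

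The members and the 5 gene lists were chosen with earlier results of these data known. All 10 members were named, with up to 4 called genes of the smallest p per list and comparison, and the 3 genes most correlated with each called member, predicted genes left out; genes shown as not called were chosen after their values were seen. Promoter windows came from RefSeq (GRCm38.p6). Smad2, Smad4 and Smad7 were left out of that search by their chromosome, and 5 of 10 members had a window in it. Files were read with jsonlite 2.0.0 and data.table (version 1.17.8), and figures drawn with matplotlib 3.10.9 in Python 3.11.15. The alternatives tried were pseudocount, filter, scaling, covariates, the lines fitted, the variance trend and leaving out each line.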

Additional observations from a re-analysis of the deposited data

Results flagged for a closer look

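Tgfb3 in the tumor lines had 1 line far from the others. Tumor 5 held 36.7 TPM of Tgfb3, while the next tumor line held 71.3 TPM and the highest 89.7 TPM, so the gap was 0.652 of the range of the group. The same check was made for 30 sets, each member in each group, and chance marks about 1 in 20 such sets.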

How the results depend on the processing

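Of the members, Tgfb2 kept its call and direction against normal lines in every alternative that tested it, for tumor and for PanIN lines. The count of members called between tumor and normal lines was 4. It was 2 with a filter at a TPM of 5 and 1 with the line number as a replicate block, and leaving out 1 line gave 2 to 4. That block draws only on lines whose number occurs in more than 1 group, so its counts rest on fewer lines. Between PanIN and normal lines the count was 1. It was 0 with the filter at 5, which drops Tgfb2, and 2 with median-of-ratios scaling, with the series as a term and with the replicate block; leaving out 1 line gave 1 to 2. Between tumor and PanIN lines it was 0, and 0 to 1 when 1 line was left out. Over all genes, the comparison of tumor with normal lines gave 4024 calls, 225 with the replicate block, and 2652 (without tumor 8) to 4856 when 1 line was left out. Between PanIN and normal lines 847 were called, 535 with the filter at 5, 258 with the block, and 495 (without PanIN 5) to 894 when 1 line was left out. Between tumor and PanIN lines 200 were called, 93 with no filter, 130 with the filter at 5, 333 with quantile normalization, 65 with the series as a term, 8 with the block and 97 with only those groups fitted. Leaving out 1 line gave 51 to 2833 there: 789 without normal 11, 114 without normal 13, 53, 82, 77, 54 and 2833 without PanIN 1, 2, 3, 4 and 6, and 2397, 68, 393, 51 and 66 without tumor 4, 5, 7, 8 and 9. The cause was not tested.

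Lines of different groups with the same number correlated between -0.31 and 0.25 in their deviations. Whether such lines share a mouse or litter is not stated, and these values cannot decide it. Numbers shared directly were 5 and 7 for tumor and normal lines, and 5 and 6 for PanIN and normal lines. Lines whose number occurs in 1 group add nothing to the block contrasts, so a call lost or gained there rests on part of the lines. With the block the limma adjusted p was 0.0669 for Smad3, 0.140 for Smad7 and 0.136 for Tgfb3 in tumor against normal lines. For Tgfbr1 in PanIN against normal lines it was 0.0355 (-0.82). Values that changed sign were all uncalled. In tumor against normal lines these were Smad4 (-0.024 rescaled without the 11 rows that have no comparison in the deposited table, -0.027 with quantile normalization), Tgfb1 (0.019, quantile) and Tgfbr2 (-0.12, block). In PanIN against normal lines they were Smad3 (0.014, median-of-ratios), Tgfbr2 (-0.032, block) and Smad2 (-0.061, block). In tumor against PanIN lines they were Tgfb1 (0.032, quantile), Tgfbr1 (0.14 series, 0.34 block) and Smad2 (0.050 series, 0.096 block). Leaving out 1 line gave -0.074 to 0.055 for Smad3 in PanIN against normal lines, and, in tumor against PanIN lines, -0.16 to 0.061 for Tgfbr1, -0.041 to 0.032 for Smad2 and -0.063 to 0.047 for Tgfb1. The 11 rows held 16.3% to 28.6% of the TPM of a line. Rescaling without them took the share of higher genes among calls to 37.4%, against 55.1%, between tumor and normal lines. Median-of-ratios scaling took it to 56.5%, against 45.7%, between PanIN and normal lines. The shares of lower and higher calls over all genes thus depend on the scaling. The list counts were recomputed under the same settings, chosen after seeing the data: targets lower in tumor against normal lines numbered 9 to 11, and 2 with the block; in PanIN against normal lines they numbered 3 to 6, and 1 with the block; latency genes lower in tumor against normal lines numbered 3 to 6, and 1 with the block. With the block, tumor against normal lines also gave 2 lower receptor partners, 0 SMAD regulators and 1 gene of the activin branch; in PanIN against normal lines it gave 0 SMAD regulators and 0 of the activin branch, which was also 0 with the filter at 5. Depth is unknown and limits Tgfb1, Tgfb2, Tgfbr3 and Smad7 most.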
